A study of Homo sapiens with 7 samples.

Results

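Lone narrow H3K4me3 regions are short, weak stretches of the histone mark that lie far from any wide block of it. Among the 30840 regions listed for HCT116 cells, a human colon cancer line, they were chosen as the autosomal regions under 2000 bp wide whose gap to the nearest region of 2000 bp or more on the same chromosome was 100 kb or more. The rule left 6483 regions, 21.0% of all listed regions and 32.7% of the 19845 narrow autosomal ones. It used widths and positions only, and no read value. The study asked, by its title, how methylation of the demethylase KDM5A by the methyltransferase SMYD2 bears on KDM5A's activity on the genome. H3K4me3 was measured by chromatin immunoprecipitation and sequencing (ChIP-seq) 24 h after transfection of mutant KDM5A, wild-type KDM5A or an empty vector. All 3 transfections were made in HCT116 KDM5A-/- cells, whose own KDM5A is knocked out and which were kept in G418, so every library shares the knockout and the empty vector library stands for cells without added KDM5A. The labels do not give the residues changed in the mutant or the fraction of cells transfected, and each transfection gave 1 library, so no comparison here has a replicate check and no p-value is given.

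H3K4me3 is trimethylation of lysine 4 of histone H3. Wide blocks of it cover the starts of active genes, above all those with CpG islands, while narrow, weak patches are found at little-used promoters and at some enhancers. KDM5A, also called JARID1A or RBP2, is a demethylase that removes methyl groups from this residue, so its substrate is the mark that was sequenced. The regions are described by coordinate only, in the hg19 build that the submitters' processing notes name, because no gene annotation of that build was used here.

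The values are reads per 1000000 reads (RPM), the authors' count of reads in each region scaled to the library's total. In each library every value was a whole multiple of 1 step, within 0.02 reads for 100% of regions, which gave totals of 9906508 reads with mutant KDM5A, 10852411 with wild-type KDM5A and 10713021 with the empty vector. All intervals below are exact 95% Clopper-Pearson intervals on those reads; they cover counting error only, and sequenced reads are not all independent molecules. The listed regions together held 56.9% of reads with mutant KDM5A, 60.7% with wild-type KDM5A and 67.0% with the empty vector. The rest of the genome carried correspondingly more reads, at 0.143, 0.131 and 0.110 RPM per kb in that order of libraries. That off-region rate moves with the ratios below, and its part in them was not tested.

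Lone narrow regions held 2.91% of all reads with mutant KDM5A, 3.08% with wild-type KDM5A and 3.37% with the empty vector, and about the same share of the RPM inside listed regions (5.10%, 5.07% and 5.03% in that order). They covered 5.20 of the 49.4 Mb that all listed regions span. By width, 2330 were under 500 bp, 2186 were 500 to under 1000 bp and 1967 were 1000 to under 2000 bp, with a median of 687 bp and a minimum of 188 bp. The gap to the nearest wide region had a median of 207 kb, with quartiles of 139.9 and 349.6 kb and a maximum of 6737 kb. The name holds only as to wide regions: 1035 members (16.0%) had another listed region, itself narrow, within 5 kb, and 1721 (26.5%) had none of any width within 100 kb. At the edges of the rule, the member with the smallest gap (chromosome 18, 57721165 to 57721584) had 1.51 RPM with mutant KDM5A, 0.461 RPM with the wild type and 1.12 RPM with the empty vector. The region just under the gap limit (chromosome 1, 8585313 to 8586343) had 8.48 RPM with mutant KDM5A, 5.62 RPM with the wild type and 7.09 RPM with the empty vector. The widest member (chromosome 5, 99870183 to 99872181), had 35.4 RPM with mutant KDM5A, 39.0 RPM with the wild type and 35.9 RPM with the empty vector. A region of 2000 bp, just too wide (chromosome 8, 10403993 to 10405992), had 17.0 RPM with mutant KDM5A, 16.1 RPM with the wild type and 16.7 RPM with the empty vector. These are single regions, given for scale only.

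Most lone narrow regions were weak, and their level followed their width. The median over all 6483 was 1.62 RPM with mutant KDM5A, 1.66 RPM with the wild type and 1.77 RPM with the empty vector. Members under 500 bp had medians of 0.707 RPM with mutant KDM5A, 0.737 RPM with the wild type and 0.747 RPM with the empty vector, which is 7, 8 and 8 reads a region in that order. Members of 500 to under 1000 bp had medians of 1.82, 1.84 and 1.96 RPM in the same order, or 18, 20 and 21 reads. Members of 1000 to under 2000 bp stood higher, at 6.76 RPM with mutant KDM5A, 7.28 RPM with the wild type and 7.93 RPM with the empty vector, or 67, 79 and 85 reads. Per kb of width both narrower classes lay close together, with medians between 2.47 and 2.71 RPM per kb in any library, while the widest class had 5.03, 5.39 and 5.95 RPM per kb with mutant KDM5A, wild-type KDM5A and the empty vector. Width is itself an outcome of peak calling on ChIP signal, so this order of levels is a description. Wide autosomal regions, for scale, had medians of 43.7 RPM with mutant KDM5A, 46.7 RPM with the wild type and 51.9 RPM with the empty vector.

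A minority of members were strong. Averaged over the libraries, 468 members (7.22%) had 20 RPM or more, of which 466 were 1000 to under 2000 bp wide, 2 were 500 to under 1000 bp wide and 0 were narrower. At the other end, 2021 members (31.2%) averaged under 1 RPM, 1741 of them under 500 bp wide. Reads were absent altogether from 39 members with mutant KDM5A, 72 with wild-type KDM5A and 79 with the empty vector, where 3 reads would be 0.303, 0.276 and 0.280 RPM in those libraries.

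**Figure D1:**
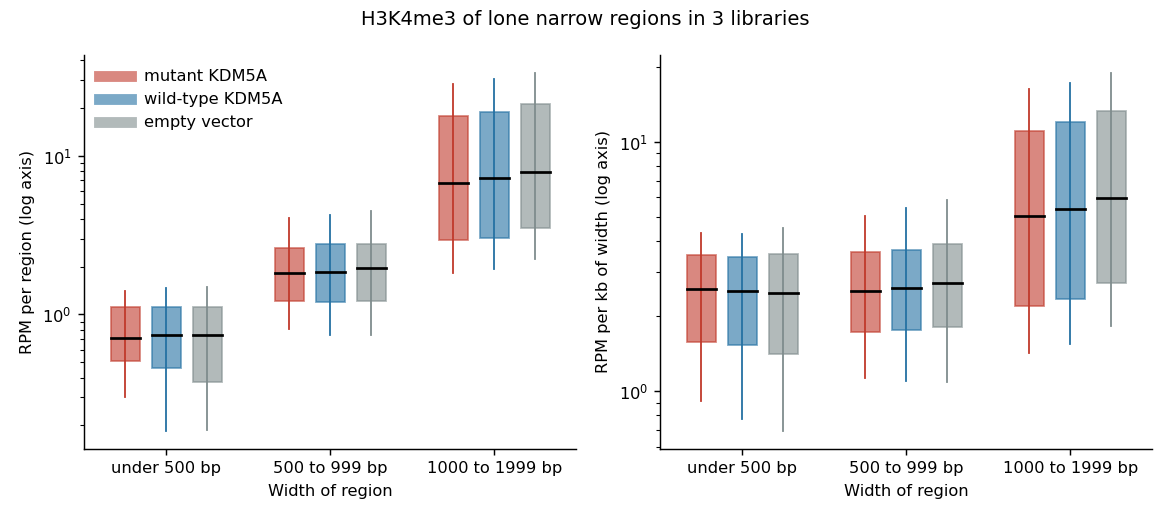
RPM of lone narrow regions (log axis) in the libraries of mutant KDM5A, wild-type KDM5A and the empty vector, by width class, per region on the left and per kb of width on the right; boxes span the quartiles, black bars are medians and lines run over the middle 80% of regions. The medians per region sit near 0.7 RPM under 500 bp, between 1.82 and 1.96 RPM at 500 to under 1000 bp and between 6.76 and 7.93 RPM at 1000 to under 2000 bp.

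The strongest members were not typical of the set. A region of 959 bp beside the centromere of chromosome 1, 121484481 to 121485439, had 129.5 RPM with mutant KDM5A, 123 RPM with the wild type and 112 RPM with the empty vector, and the next listed region lay 22 Mb further on. Mutant over empty vector was 1.15-fold (95% interval 1.06 to 1.25) and wild-type over empty vector 1.09-fold (95% interval 1.01 to 1.18). A region close to the centromere of chromosome 7, 61968847 to 61969595, had 85.2 RPM with mutant KDM5A, 85.5 RPM with the wild type and 72.3 RPM with the empty vector. A region on the short arm of chromosome 21, 9825641 to 9827465, had 89.0 RPM with mutant KDM5A, 67.8 RPM with the wild type and 82.0 RPM with the empty vector. Centromeres and the short arm of chromosome 21 are rich in repeats, and the part of repeats in these values was not tested. In mutant over empty vector these 3 regions together were at 1.14 (95% interval 1.08 to 1.20), above the level of the empty vector, while the other members together stood at 0.860. Leaving them out changed the summed ratios of all members little, to 0.860, 0.912 and 0.943 for mutant over empty vector, wild-type over empty vector and mutant over wild-type.

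Other strong members were as follows. In the widest class, chromosome 16, 81812156 to 81814133, had 54.5 RPM with mutant KDM5A, 58.8 RPM with the wild type and 61.0 RPM with the empty vector. The next, chromosome 10, 115802405 to 115804124, had 44.5 RPM with mutant KDM5A, 49.9 RPM with the wild type and 50.8 RPM with the empty vector. Among members of 500 to under 1000 bp, the third in level after the regions beside centromeres, chromosome 17, 66770487 to 66771273, had 12.3 RPM with mutant KDM5A, 14.7 RPM with the wild type and 15.0 RPM with the empty vector. In each of these the empty vector library was the highest. Under 500 bp, chromosome 8, 71000552 to 71001022, had 5.05 RPM with mutant KDM5A, 4.24 RPM with the wild type and 3.55 RPM with the empty vector, with mutant KDM5A highest, and chromosome 17, 39296129 to 39296492, had 2.83 RPM with mutant KDM5A, 4.61 RPM with the wild type and 4.01 RPM with the empty vector.

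The strongest member under 500 bp was of another kind. It lies at chromosome 12, 394565 to 394888, in the stretch of that chromosome that holds KDM5A itself. It had 235 reads (23.7 RPM) with mutant KDM5A, 205 reads (18.9 RPM) with wild-type KDM5A and 0 reads with the empty vector. Against a floor of 3 reads in the empty vector library it was at least 84.7-fold higher with mutant KDM5A and at least 67.5-fold higher with wild-type KDM5A. The exact 95% intervals of these ratios, which also count the error of the KDM5A libraries, begin at 68.4 and 54.4. Whether its reads come from the chromosome or from transfected DNA that carries KDM5A sequence was not tested. Without it the summed ratio of members under 500 bp was 0.994 for mutant over empty vector and 0.994 for wild-type over empty vector, against 1.01 and 1.00 with it.

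With mutant KDM5A, lone narrow regions together carried less H3K4me3 than with the empty vector, and the difference grew with width. The summed RPM of all members was at 0.862 (95% interval 0.858 to 0.866) of the empty vector level. Members under 500 bp did not differ beyond counting error, at 1.01 (95% interval 0.987 to 1.03). Those of 500 to under 1000 bp were at 0.921 (95% interval 0.910 to 0.932), or 0.913 without the regions beside centromeres, and those of 1000 to under 2000 bp at 0.840 (95% interval 0.835 to 0.845). The widest class thus stood near the wide autosomal regions, which were at 0.843, and nearer than the other classes. These levels rest on the authors' scaling to total reads. Scaled so that the median ratio of wide autosomal regions is 1, a shift of 0.24 on the log2 scale, members under 500 bp came to 1.19, those of 500 to under 1000 bp to 1.09 and those of 1000 to under 2000 bp to 0.994 of the empty vector level. The direction for the set as a whole therefore depends on the scaling; since a scaling divides every ratio by one factor, it cannot change the order of the classes.

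Single regions were mostly too shallow to show such a difference. At the median reads of each class, the 95% interval of 1 region's mutant over empty vector ratio ran from 0.292 to 2.99 under 500 bp, from 0.466 to 1.83 at 500 to under 1000 bp and from 0.609 to 1.19 at 1000 to under 2000 bp. The log2 ratio of each region was taken with 0.7 RPM added to both values, which understates the change of weak regions. Its median was −0.12 over all members, against −0.18 over all listed regions. By class the median was 0.00 under 500 bp, −0.07 at 500 to under 1000 bp and −0.22 at 1000 to under 2000 bp.

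In mutant over empty vector, 635 members lay 1.5-fold or more higher (9.79%, against 6.61% of all listed regions) and 937 lay 1.5-fold or more lower (14.5%, against 8.15%). If every member had the set's summed ratio and differed only by the splitting of its reads between both libraries, 112 would lie past the threshold upwards and 551 downwards. More regions lay past it than counting alone would put there, in both directions. The excess was found in each width class. The counting values take the regions as given, but regions were called on ChIP signal, from which libraries is not known here. The part of that calling in the excess was not tested. Under 500 bp there were 372 higher and 343 lower, where counting at the class's own ratio gives 134 and 141. At 500 to under 1000 bp there were 211 higher and 321 lower, where it gives 53.8 and 149.7. At 1000 to under 2000 bp the calls were mostly downward, 52 higher and 273 lower, where it gives 5.12 and 111. Of all calls, 59.6% were downward as deposited, 37.2% under the scaling to wide regions and 87.6% when reads outside listed regions were made equal. By a rule with no pseudocount, that the 95% interval of a region's ratio leaves out 1, 304 members were above (background 3.49% of all listed regions) and 991 below (background 31.7%), that is 4.69% and 15.3% of members. That rule depends on reads, of which the median member had 16 with mutant KDM5A and 19 with the empty vector, against 45 and 53 for all listed regions. Past 2-fold, 121 members were higher (background 1.18%) and 228 lower (background 1.78%).

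**Figure D2:**
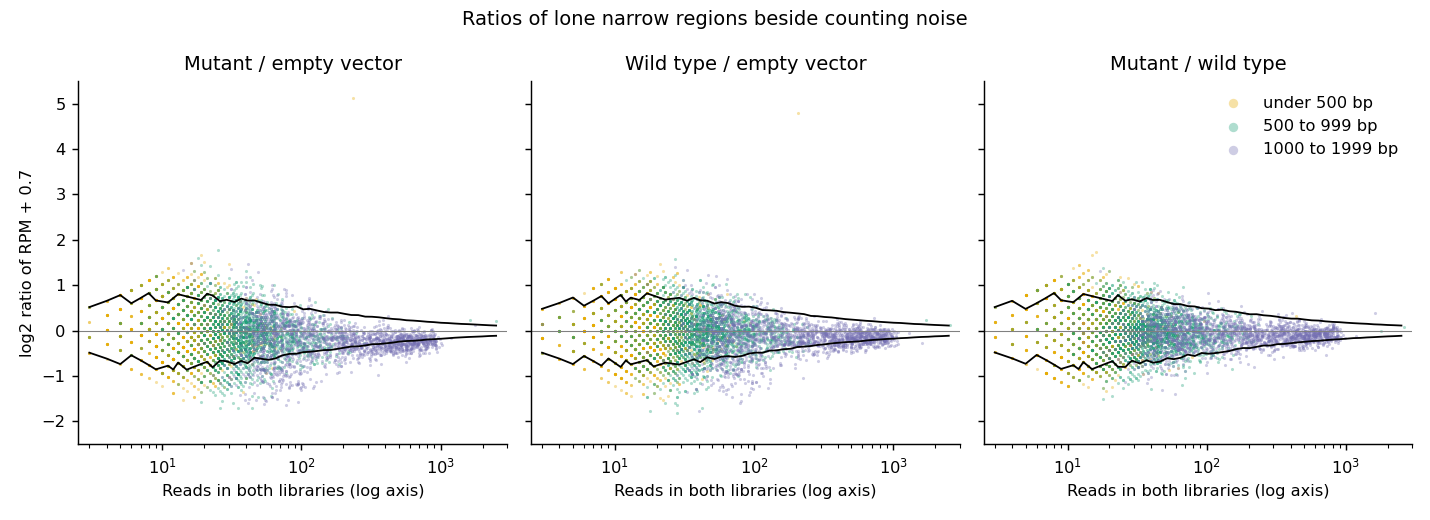
Each point is 1 lone narrow region: its log2 ratio of RPM plus 0.7 against its reads in both libraries (log axis), for each pair of libraries, coloured by width class; the black lines bound the central 95% of what counting alone gives around a ratio of 1. In both panels against the empty vector, members with about 30 to 200 reads spread further below the lower line than above the upper one, and the lone point above 4 is the chromosome 12 region.

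The spread of the ratios can be set against counting directly. The mean squared deviation of the members' reads from their summed ratio, in units of the binomial variance, would be near 1 if counting were the only source. It was 2.23 for mutant over empty vector, 2.04 for wild-type over empty vector and 1.61 for mutant over wild-type. Wide autosomal regions, with many more reads each, had 1.84, 1.68 and 1.46 in that order. In the widest class of members it was 1.32 between mutant and wild-type, against 2.26 and 2.12 for mutant and wild-type over the empty vector. With 1 library of each kind, differences between transfections and differences between any 2 libraries cannot be told apart in this excess.

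Among the 3588 members with at least 30 reads in both libraries together, the 5 lowest in mutant over empty vector were 4.16 to 7.17-fold lower. One of these, chromosome 16, 23846861 to 23848146, had 1.41 RPM with mutant KDM5A, 1.47 RPM with the wild type and 5.88 RPM with the empty vector. With mutant KDM5A it was 4.16-fold (95% interval 2.31 to 8.04) lower than with the empty vector, and with wild-type KDM5A 3.99-fold (95% interval 2.28 to 7.40) lower. Another, chromosome 13, 95619849 to 95620860, had 0.606 RPM with mutant KDM5A, 0.461 RPM with the wild type and 3.27 RPM with the empty vector, so it too was low in both KDM5A libraries. In the other three, wild-type KDM5A lay between. They were chromosome 15, 68115524 to 68116376, with 0.404 RPM with mutant KDM5A, 0.737 RPM with the wild type and 2.89 RPM with the empty vector; chromosome 22, 33453525 to 33454338, with 0.606 RPM with mutant KDM5A, 2.03 RPM with the wild type and 3.55 RPM with the empty vector; and chromosome 1, 218337692 to 218339312, with 0.908 RPM with mutant KDM5A, 2.67 RPM with the wild type and 4.2 RPM with the empty vector. Both comparisons share the empty vector library, so a high value there would lower both ratios at once.

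The 5 highest were led by the chromosome 12 region. At chromosome 2, 214793764 to 214794900, there were 2.52 RPM with mutant KDM5A, 2.49 RPM with the wild type and 0.560 RPM with the empty vector. Here both KDM5A libraries were alike, 4.51-fold (95% interval 1.80 to 13.4) and 4.44-fold (95% interval 1.80 to 13.2) over the empty vector. At chromosome 14, 91111631 to 91112708, there were 3.33 RPM with mutant KDM5A, 2.21 RPM with the wild type and 0.747 RPM with the empty vector, with a mutant over empty vector ratio of 4.46-fold (95% interval 2.02 to 11.2). The other two were highest with mutant KDM5A alone: chromosome 1, 30531525 to 30532006, with 2.52 RPM with mutant KDM5A, 1.11 RPM with the wild type and 0.467 RPM with the empty vector, and chromosome 7, 81643953 to 81644479, with 3.13 RPM with mutant KDM5A, 1.20 RPM with the wild type and 0.840 RPM with the empty vector. The named regions are the extremes of 3588 values and were picked for their folds, which are therefore a description.

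With wild-type KDM5A the same order of widths appeared with a smaller difference. The summed RPM was at 0.913 (95% interval 0.908 to 0.917) of the empty vector level over all members. Under 500 bp it was 1.00 (95% interval 0.985 to 1.02), at 500 to under 1000 bp 0.955 (95% interval 0.944 to 0.967) and at 1000 to under 2000 bp 0.898 (95% interval 0.893 to 0.902). Only the narrowest class thus had an interval that held 1. Wide autosomal regions were at 0.900. The median log2 ratio of all members was −0.07, against −0.11 over all listed regions. Past 1.5-fold, 577 members were higher (8.90%, background 6.23%) and 773 lower (11.9%, background 6.53%), where counting at the set's ratio gives 145 and 362. Intervals that left out 1 put 283 members above (background 3.56%) and 732 below (background 20.1%), and past 2-fold 87 were higher (background 1.04%) and 158 lower (background 1.29%). The widest class again had more calls downward than upward, 200 against 66, while under 500 bp they were about even, 302 lower and 324 higher. Counting at each class's own ratio gives 57.1 lower and 8.10 higher in the widest, and 116 lower and 131 higher under 500 bp. Of all calls 57.3% were downward as deposited, 43.2% under the scaling to wide regions and 80.7% with reads outside listed regions made equal.

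The lowest members in wild-type over empty vector held 2 already named, on chromosomes 13 and 16. The region on chromosome 13 was 7.09-fold (95% interval 2.77 to 23.2) lower with wild-type KDM5A. The others were chromosome 2, 214149126 to 214149865, with 1.82 RPM with mutant KDM5A, 0.553 RPM with the wild type and 3.36 RPM with the empty vector; chromosome 15, 60883628 to 60885142, with 2.22 RPM with mutant KDM5A, 1.57 RPM with the wild type and 5.97 RPM with the empty vector; and chromosome 10, 83635234 to 83636597, with 3.13 RPM with mutant KDM5A, 1.38 RPM with the wild type and 5.04 RPM with the empty vector. The last lies 1338 kb from the nearest wide region. In all 5 of these regions the empty vector library was the highest of the libraries.

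The highest in wild-type over empty vector, after the regions of chromosome 12 and of chromosome 2 at 214793764, were chromosome 2, 173095543 to 173097113, with 1.72 RPM with mutant KDM5A, 3.32 RPM with the wild type and 1.03 RPM with the empty vector; chromosome 1, 88260786 to 88262333, with 2.62 RPM with mutant KDM5A, 3.69 RPM with the wild type and 1.21 RPM with the empty vector; and chromosome 7, 28076355 to 28077575, with 1.21 RPM with mutant KDM5A, 4.33 RPM with the wild type and 1.59 RPM with the empty vector. In the first and last of these, mutant KDM5A lay nearer the empty vector than wild-type KDM5A.

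Mutant and wild-type KDM5A differed least from each other. Mutant over wild-type was 0.945 (95% interval 0.940 to 0.949) over all members, 1.00 (95% interval 0.983 to 1.02) under 500 bp, 0.964 (95% interval 0.953 to 0.976) at 500 to under 1000 bp and 0.936 (95% interval 0.930 to 0.941) at 1000 to under 2000 bp. Members of 500 bp or more thus had a lower sum with mutant KDM5A than with wild-type KDM5A by more than counting error, and narrower ones did not. Scaled to the median of wide autosomal regions, the ratio of all members was 1.01. Past 1.5-fold, 568 members were higher (8.76%, background 5.19%) and 591 lower (9.12%, background 5.45%), where counting at the set's ratio gives 186 and 342. Intervals that left out 1 put 284 above (background 2.89%) and 362 below (background 10.8%), and past 2-fold 97 were higher (background 0.872%) and 71 lower (background 0.649%). Most of the calls past 1.5-fold were in the narrowest class, 352 higher and 309 lower, and few in the widest, 31 higher and 83 lower. Counting at each class's own ratio gives 136 higher and 133 lower in the narrowest, and 15.3 and 48.0 in the widest. Of all calls 51.0% were downward as deposited, 41.3% under the scaling to wide regions and 63.8% with reads outside listed regions made equal. By library, 1694 members were highest with mutant KDM5A, 1858 with wild-type KDM5A and 2931 with the empty vector. The same count over all listed regions is not given here. Below the empty vector were 60.1% of members with mutant and 58.0% with wild-type KDM5A. Over all listed regions, which hold more reads each, these shares were larger, 70.5% and 66.7%.

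At the extremes of this comparison, chromosome 7, 28076355 to 28077575, was 3.58-fold (95% interval 1.87 to 7.40) lower with mutant than with wild-type KDM5A. The next lowest were chromosome 3, 189729784 to 189730961, with 1.01 RPM with mutant KDM5A, 3.5 RPM with the wild type and 2.05 RPM with the empty vector, and chromosome 11, 58538068 to 58538854, with 0.808 RPM with mutant KDM5A, 2.95 RPM with the wild type and 1.87 RPM with the empty vector. The list ended with chromosome 15, 33486541 to 33487431, with 1.62 RPM with mutant KDM5A, 4.61 RPM with the wild type and 3.45 RPM with the empty vector, and chromosome 17, 66817283 to 66818310, with 0.808 RPM with mutant KDM5A, 2.67 RPM with the wild type and 1.12 RPM with the empty vector. Upwards, chromosome 8, 81260119 to 81260941, had 2.52 RPM with mutant KDM5A, 0.829 RPM with the wild type and 1.77 RPM with the empty vector, and chromosome 11, 17705037 to 17705671, had 2.32 RPM with mutant KDM5A, 0.737 RPM with the wild type and 1.12 RPM with the empty vector. A pair more, chromosome 10, 44349370 to 44350268, and chromosome 2, 165860061 to 165860554, had 3.03 and 2.22 RPM with mutant KDM5A, against 1.11 and 0.737 RPM with wild-type KDM5A. The chromosome 7 region at 81643953, named above, completed the 5.

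**Figure D3:**
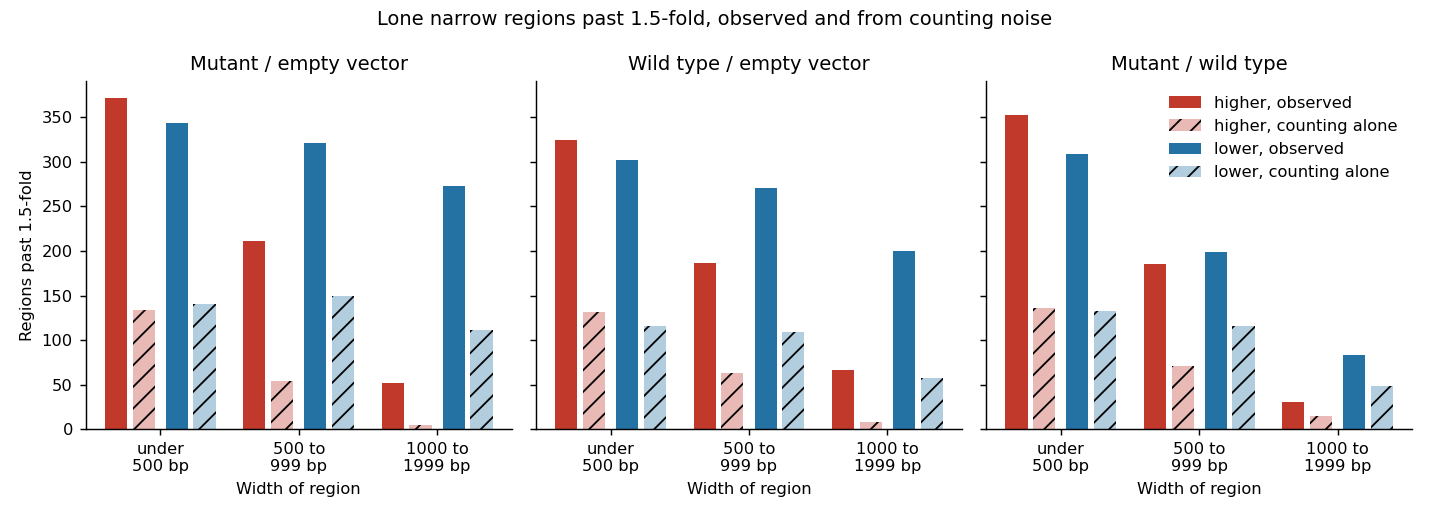
Numbers of lone narrow regions at least 1.5-fold higher or lower in each comparison, by width class, beside the number that the splitting of reads alone gives at the class's own summed ratio. The observed bars exceed the counting values in every class and direction, for example 273 lower members of 1000 to under 2000 bp in mutant over empty vector against 111 by counting.

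Width classes were then compared at like RPM, because wider members also hold more reads. At the same RPM a wider member has a lower RPM per kb, so these bins do not part width from signal per kb. The bins of level use the mean over the same 3 libraries as the ratios and are not independent of them. Between 2 and 5 RPM, the 671 members of 1000 to under 2000 bp were at 0.815 (95% interval 0.800 to 0.830) in mutant over empty vector. The 793 members of 500 to under 1000 bp at the same level were at 0.917 (95% interval 0.901 to 0.934), and the intervals do not overlap. In wild-type over empty vector the same members were at 0.856 (95% interval 0.841 to 0.872) and 0.963 (95% interval 0.947 to 0.980). The 50 members under 500 bp at this level were at 0.904 (95% interval 0.836 to 0.978) in mutant over empty vector, which does not part them from the middle class. At 1 to 2 RPM the mutant over empty vector ratios were 0.852, 0.918 and 0.952 for the widest, middle and narrowest class, with intervals of 0.804 to 0.903, 0.897 to 0.939 and 0.921 to 0.984, so that neighbouring classes overlap. At 5 to 10 RPM the widest and middle class were alike, at 0.857 and 0.855. In the widest class the ratio was 0.830 at 10 to 20 RPM and 0.844 at 20 RPM or more. Below 1 RPM the ratio was above 1, at 1.03 under 500 bp and 1.12 at 500 to under 1000 bp.

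**Figure D4:**
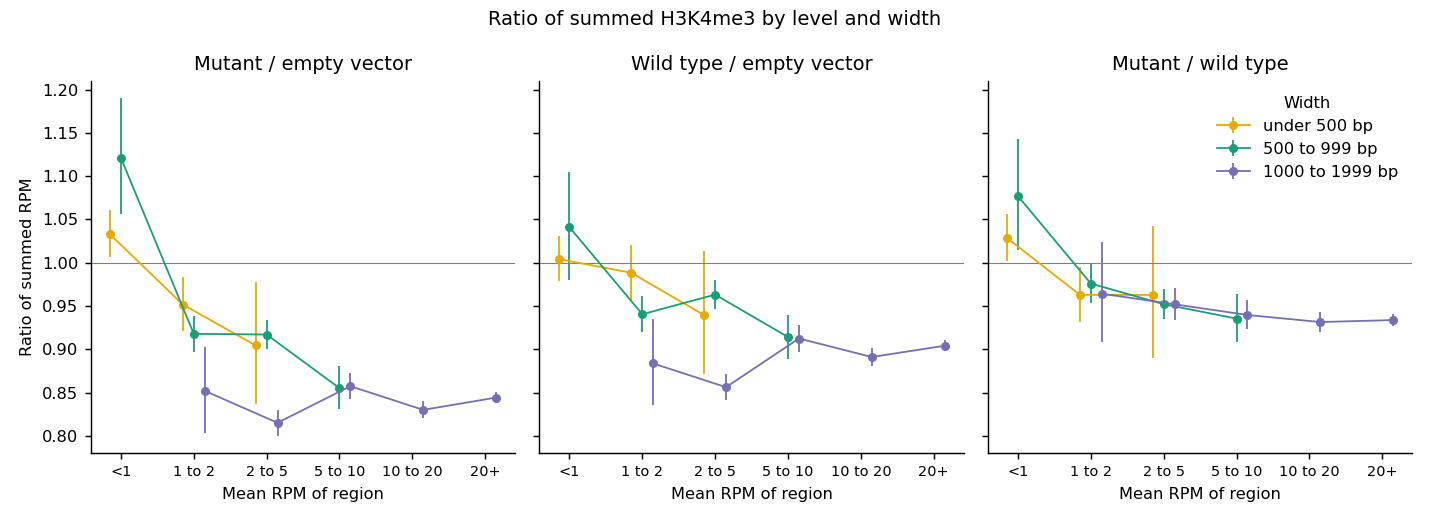
Summed-RPM ratios of lone narrow regions by mean level and width class in each comparison, with 95% counting intervals. Between 1 and 5 RPM the widest members lie below narrower ones of the same level in both comparisons with the empty vector, and at 5 to 10 RPM both classes shown meet.

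Distance from wide regions went with the ratio for members of low and middling level. Members of 1 to 5 RPM numbered 1549, 1188, 315 and 110 at gaps of 100 to under 200, 200 to under 500, 500 to under 1000 and 1000 kb or more. Their mutant over empty vector ratio was 0.919 (95% interval 0.906 to 0.933), 0.886 (95% interval 0.871 to 0.902), 0.788 (95% interval 0.762 to 0.815) and 0.695 (95% interval 0.656 to 0.736) in that order of gaps. The farthest members were thus the lowest, and no counting interval overlaps the next. Reads in these groups spread more than counting gives, at 2.05, 2.15, 2.55 and 2.55 times the binomial variance. The intervals are therefore too narrow to settle a difference between neighbouring gaps, and the band of 1 to 5 RPM was chosen after values were seen. Wild-type over empty vector gave 0.960, 0.920, 0.829 (95% interval 0.803 to 0.856) and 0.742 (95% interval 0.702 to 0.783). These 2 gradients share the empty vector library and are not separate evidence. Mutant over wild-type, which does not use it, showed little change with gap, at 0.958, 0.964, 0.951 and 0.937 (95% interval 0.881 to 0.996). The share of members below the empty vector was 54.0%, 57.1%, 64.8% and 76.4% with mutant KDM5A over the same gaps. Over all listed regions it was 70.5%, a share that only the farthest group passed. Those regions hold more reads, with a median of 45 with mutant KDM5A against 19, 18, 17 and 15 over the gaps. The shares are therefore not set against regions of like level. The share rose with the gap as the sums fell, so the fall was not confined to a few large regions.

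The farthest group was looked at more closely. Its 110 members lay on 20 chromosomes, with at most 16 on 1 of them, chromosome 4. With mutant KDM5A, 84 were below the empty vector and 26 above, and with wild-type KDM5A 80 were below and 30 above. The shares below were 76.4% and 72.7%, against 70.5% and 66.7% of all listed regions, which hold more reads each. All 14 chromosomes with 3 or more such members had a mutant over empty vector ratio under 1. Leaving out each chromosome in turn gave ratios between 0.683 and 0.708. In wild-type over empty vector 13 of the 14 were under 1, and leaving out each gave 0.729 to 0.757. All chromosomes share the same libraries, so this agreement is a description and not a replicate check. The median width changed little over the 4 gaps, at 764, 748, 770 and 830.5 bp, and the gradient was present within both classes of 500 bp or more. In members of 1000 to under 2000 bp the ratio was 0.871, 0.815, 0.704 and 0.622 (95% interval 0.571 to 0.677). In members of 500 to under 1000 bp it was 0.941, 0.921, 0.829 and 0.768. Under 500 bp the ratio was 0.962, 0.945 and 0.914 at the gaps below 1000 kb, with intervals that overlap. That class therefore shows no clear gradient, and its value at 1000 kb or more is not given. Under the scaling to wide regions, which divides all ratios by one factor, the farthest group was at 0.822 for mutant and 0.822 for wild-type over empty vector.

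Members under 1 RPM took the same course from a higher start. Over the same gaps, mutant over empty vector was 1.10, 1.03, 1.01 and 0.884 and wild-type over empty vector 1.06, 1.01, 0.959 and 0.683. In the 90 farthest of them the mutant over wild-type ratio was 1.29 (95% interval 1.14 to 1.47). At the nearer gaps it was 1.03, 1.02 and 1.05, with intervals that held 1. The farthest value is 1 of many combinations of gap and level. Its reads spread 2.41 times the binomial variance, so the counting interval is too narrow. At 5 to 20 RPM there was no steady course, with 0.857, 0.827, 0.841 and 0.818 for mutant and 0.908, 0.896, 0.896 and 0.878 for wild-type over empty vector. At 20 RPM or more, mutant over empty vector was 0.844, 0.839, 0.861 and 0.931, the last over 19 members, or 0.873 without the regions near the centromere of chromosome 7 and on the short arm of chromosome 21. Wide regions were also lower at large distances to the next wide region. Their mutant over empty vector ratio was 0.839 (95% interval 0.838 to 0.841) at under 20 kb and 0.838 at 200 to under 500 kb. It was 0.827 (95% interval 0.820 to 0.834) at 500 to under 1000 kb and 0.792 (95% interval 0.781 to 0.803) at 1000 kb or more. Wild-type over empty vector of wide regions was 0.898 at under 20 kb and 0.863 at 1000 kb or more, so lower ratios far from wide regions are not particular to narrow ones. Taken over all levels, members at 1000 kb or more had a summed mutant over empty vector ratio of 0.853, against 0.872 at 100 to under 200 kb. The strongest members weigh most in such sums; the median log2 ratios were −0.30 and −0.10.

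**Figure D5:**
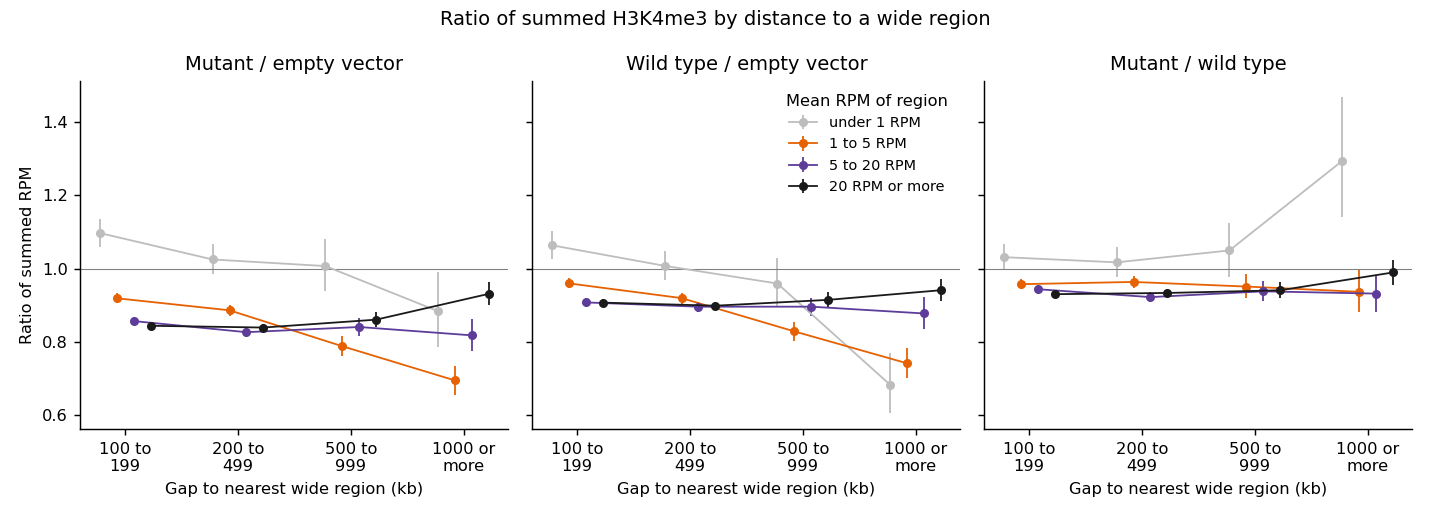
Summed-RPM ratios by gap to the nearest wide region, with 95% counting intervals, for lone narrow regions by mean level in each comparison. For members of 1 to 5 RPM mutant over empty vector is 0.695 at 1000 kb or more, against 0.919 at 100 to under 200 kb, while mutant over wild-type stays between 0.937 and 0.964.

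The 3 members with the largest gaps lie within 2 Mb of each other on chromosome 5. At chromosome 5, 23675091 to 23675698, 6737 kb from any wide region, there were 8 reads with mutant KDM5A, 2 with wild-type KDM5A and 1 with the empty vector, a mutant over empty vector ratio of 8.65-fold (95% interval 1.16 to 384). At chromosome 5, 23506544 to 23507374, there were 1.31 RPM with mutant KDM5A, 1.47 RPM with the wild type and 2.99 RPM with the empty vector, with a mutant over empty vector ratio of 0.439-fold (95% interval 0.212 to 0.861). At chromosome 5, 25083459 to 25083721, there were 0.908 RPM with mutant KDM5A, 0.553 RPM with the wild type and 0.560 RPM with the empty vector. Against the empty vector, mutant KDM5A was thus higher in the first and lower in the second of these regions beyond counting error, and not apart in the third (95% interval 0.516 to 5.54).

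Lone regions had somewhat lower ratios against the empty vector than narrow regions nearer than 100 kb to a wide one. Mutant over empty vector was 0.862 for lone regions and 0.890 for near ones, and wild-type over empty vector 0.913 and 0.945. Mutant over wild-type was about the same in both, at 0.945 and 0.943. At 1000 to under 2000 bp, mutant over empty vector was 0.840 (95% interval 0.835 to 0.845) for lone regions and 0.869 (95% interval 0.866 to 0.872) for near ones. At 500 to under 1000 bp it was 0.921 (95% interval 0.910 to 0.932) for lone regions and 0.953 (95% interval 0.944 to 0.961) for near ones. Under 500 bp it was 1.01 (95% interval 0.987 to 1.03) for lone regions and 1.11 (95% interval 1.10 to 1.13) for near ones. Near regions of that class thus lay above the empty vector level in sum, though their median log2 ratio was only 0.05. These differences exceed counting error and have no replicate check. Median levels were lower in lone regions, at 1.62 RPM against 2.12 RPM in near ones with mutant KDM5A, and at 1.77 RPM against 2.05 RPM with the empty vector.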

How the data were processed

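H3K4me3 ChIP-seq of HCT116 KDM5A-/- cells transfected with mutant KDM5A, wild-type KDM5A or an empty vector was read from the table of RPM values that the authors deposited, 1 library each. The other 4 libraries of the series were not used here. Per the submitters' processing notes, the tools were Bowtie2 2.5.4, MACS2, HOMER and deepTools 3.5.6 and the build was hg19. Which library or libraries regions were called on is not given in the sources used here. Per the file headers the values are RPM, and the deposited RPM gave whole reads in all 3 libraries, so intervals are from reads; with 1 library per group no count model and no test of conditions was fitted.

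For each region the log2 ratio of RPM plus 0.7 was taken, with a threshold of 1.5-fold. Summed RPM was compared with exact Clopper-Pearson 95% intervals. Counting expectations split each region's reads binomially at its group's summed ratio and were computed exactly, and the code was tested on simulated data. The members, classes and rules were chosen with earlier results of these data known. The regions named are, for each pair of libraries, the 5 members at either end of the log2 ratios that held 30 reads or more in both together, the 3 strongest of each width class, the 3 with the largest gaps and those at the edges of the rule. Level bins, the band of 1 to 5 RPM, neighbour classes and the group of largest gaps within that band were chosen after values were seen, among several such breakdowns; one by RPM per kb is not shown. Alternatives were another pseudocount, a filter on low values, other scalings, gaps and widths, another threshold, and the set without its strongest or its chromosome 12 member. Starts are given counting from 1, with the deposited start taken as counting from 0. Python 3.11.15, numpy 2.4.6, pandas 2.3.3 and scipy 1.17.1 were used.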

Additional observations from a re-analysis of the deposited data

How the results depend on the processing

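Values below are for mutant over empty vector, wild-type over empty vector and mutant over wild-type in this order, over all members unless a class is named, with counts past the threshold given as higher and lower. As deposited they were 635/937, 577/773 and 568/591, with median log2 ratios of −0.12, −0.071 and −0.058 and summed ratios of 0.862, 0.913 and 0.945.

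With a pseudocount of 0.07 RPM the counts were 1139/1467, 1111/1298 and 1034/1167 and the medians −0.16, −0.083 and −0.071; with 3.5 RPM they were 6/92, 5/53 and 0/7 and −0.061, −0.034 and −0.030. Members averaging at least 1 RPM gave 239/603, 238/469 and 179/278, −0.16, −0.089 and −0.070 and 0.855, 0.909 and 0.941. With 2-fold as threshold the counts were 121/228, 87/158 and 97/71, and with intervals that leave out 1 they were 304/991, 283/732 and 284/362.

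Scaling decided the direction of the whole set. Scaled to wide regions, the counts were 1033/611, 792/602 and 678/478, the medians 0.066, 0.040 and 0.017 and the sums 1.02, 1.01 and 1.01. Scaled to equal sums over listed regions they were 1006/615, 786/604 and 678/478, 0.060, 0.037 and 0.016 and 1.01, 1.01 and 1.01. Scaled to equal reads outside listed regions they were 302/2139, 308/1285 and 442/778, −0.39, −0.25 and −0.16 and 0.660, 0.765 and 0.862. Members of 500 to under 1000 bp came to medians of 0.11, 0.084 and 0.021 and sums of 1.09, 1.06 and 1.03 when scaled to wide regions, and to 0.11, 0.080 and 0.019 and 1.08, 1.06 and 1.03 when scaled to equal sums. Those of 1000 to under 2000 bp had medians of 0.0047, 0.000018 and −0.0025 when scaled to wide regions. Members with gaps of 1000 kb or more had summed ratios of 1.01, 0.966 and 1.04 scaled to wide regions and 1.00, 0.963 and 1.04 scaled to equal sums; within them those of 1 to 5 RPM had ratios of 0.822, 0.822 and 0.999 and 0.818, 0.819 and 0.998. The reversals follow from the construction of these scalings, which raise the ratios by one factor.

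A gap limit of 50 kb gave 973/1280, 912/1057 and 820/858, −0.11, −0.061 and −0.060 and 0.875, 0.926 and 0.945, and one of 200 kb gave 327/575, 287/476 and 302/309, −0.16, −0.089 and −0.059 and 0.852, 0.901 and 0.945; the sets differ in size. With wide taken as 1500 bp or more they were 492/703, 432/568 and 437/457, −0.096, −0.035 and −0.051 and 0.884, 0.927 and 0.954, and the far members of 1 to 5 RPM were at 0.741, 0.793 and 0.934. The settings without the chromosome 12 member and without the 3 strongest members, both added after the data were seen, left every count, median and sum over all members within the limits set for a change.

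Depth limits single members: under 500 bp a median region holds 7 or 8 reads. No paired analysis was possible because each transfection gave 1 library. For the same reason there was no replicate to leave out, and differences between libraries and between transfections cannot be told apart.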

Other observations

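Lone narrow regions were spread unevenly over the autosomes. Per Mb of chromosome up to its last listed region, chromosome 10 held the most, 2.95, and chromosome 22 the fewest, 1.56; by number, chromosome 2 had 569 and chromosome 21 had 79. They made up 34.6% of the listed regions of chromosome 4, but 5.55% of those of the gene-rich chromosome 19. The summed mutant over empty vector ratio of the members was under 1, with its counting interval, on all 22 autosomes, from 0.816 on chromosome 19 to 0.907 on chromosome 16. Wild-type over empty vector was likewise under 1 on all 22, from 0.850 on chromosome 19 to 0.949 on chromosome 16. All listed regions together were at 0.849 and 0.905 in these comparisons. The factors of the scaling to wide regions, 0.845 and 0.902, lie within both ranges over chromosomes. Under that scaling the ratios would therefore not all be under 1. Mutant over wild-type was under 1 on 21 of the 22 and highest on chromosome 21, at 1.02, whose short-arm region, described above, was higher with mutant KDM5A.

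Members that had another listed region close by had higher ratios against the empty vector than isolated ones. A scaling by one factor keeps this order but can change which group lies nearer the empty vector level. The 1035 members with a neighbour of any width within 5 kb were at 0.910 (95% interval 0.896 to 0.924) in mutant over empty vector and 0.941 in wild-type over empty vector. The 3727 with the nearest neighbour at 5 to under 100 kb were at 0.866 and 0.917. The 1721 with none within 100 kb were at 0.834 (95% interval 0.826 to 0.842) and 0.892. The median level of members with a close neighbour was 1.41 RPM with mutant KDM5A and 1.40 RPM with the empty vector, against 1.41 and 1.68 RPM in those libraries for members with none within 100 kb.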
